A study of Homo sapiens with 8 samples.

Results

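Expression of lysosomal genes was compared in HEK293, a widely used human line that originated from embryonic kidney, after transfection of a small RNA mimic. The genes were chosen by symbol as a list of 51 among the 60606 genes of the count table: soluble hydrolases, membrane proteins and lipid carriers of the lysosome, subunits of its proton pump, and the transcription factors of the TFEB family. All 51 were found, each on a single row. The treated cells received mimics of a tRNA-derived small RNA (tDR), a fragment from the 3' side of tRNA-Asp-GTC, and the control cells received mimics with a scrambled sequence, in both cases at 50 nM with Lipofectamine RNAiMax and with collection 48 hours later. Each group held 4 libraries of total RNA, named control replicates 1 to 4 and tDR replicates 1 to 4. The line carries no other labelled alteration and all libraries come from the same line. Whether replicates are separate cultures is not stated in the labels. The p-values therefore rest on the spread among these 8 libraries, which may be technical. In bulk RNA of this kind, fewer cells of a type and less RNA per cell cannot be told apart.

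The lysosome is the acidic compartment in which the cell breaks down material delivered by endocytosis and autophagy. Its enzymes are made in the endoplasmic reticulum, sorted by receptors for mannose 6-phosphate, and depend on the low pH set up by the V-ATPase, a pump with a membrane sector (V0) that carries protons and a cytosolic sector (V1) that hydrolyses ATP. TFEB, TFE3 and MITF are related transcription factors that bind E-box motifs in the promoters of many of these genes. Their entry into the nucleus is controlled at the lysosomal surface by the kinase mTORC1, and much of that control acts on the proteins rather than on their mRNA. The title of the series links the tDR to autophagy of RNA, a pathway that ends in the lysosome.

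Among the lysosomal genes NEU1, SMPD1, ARSA, MCOLN1 and CTSL rose with the tDR and CTSC and PPT1 fell. NEU1, which encodes a sialidase, rose 1.49-fold and SMPD1, which encodes acid sphingomyelinase, rose 1.70-fold. No change among the tested members reached 2-fold in either direction. Of the 51 genes 43 had enough counts to be tested, and 36 of the 43 did not pass (adjusted p under 0.05 by the quasi-likelihood F test of edgeR, with Benjamini-Hochberg adjustment over all 17184 genes tested). The 5 higher members were 11.6% of those tested, against 12.8% of all tested genes, and the 2 lower members were 4.65%, against 11.4% of all tested genes. Among genes with a mean of 10 CPM or more, 4 of 37 members were higher (10.8%) and 2 lower (5.41%), against 9.34% and 18.3% of all such genes. Since a filter on low counts came first, the 43 are not all members. The median log2 fold change of tDR over control was 0.05 for the 43 genes and 0.02 for all tested genes. These counts depend on the scaling. With library size alone in place of TMM factors 12 members were higher and 0 lower, while the calls over all genes went from 2206 higher and 1962 lower to 3295 higher and 907 lower, and the median of all genes went to 0.10.

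**Figure D1:**
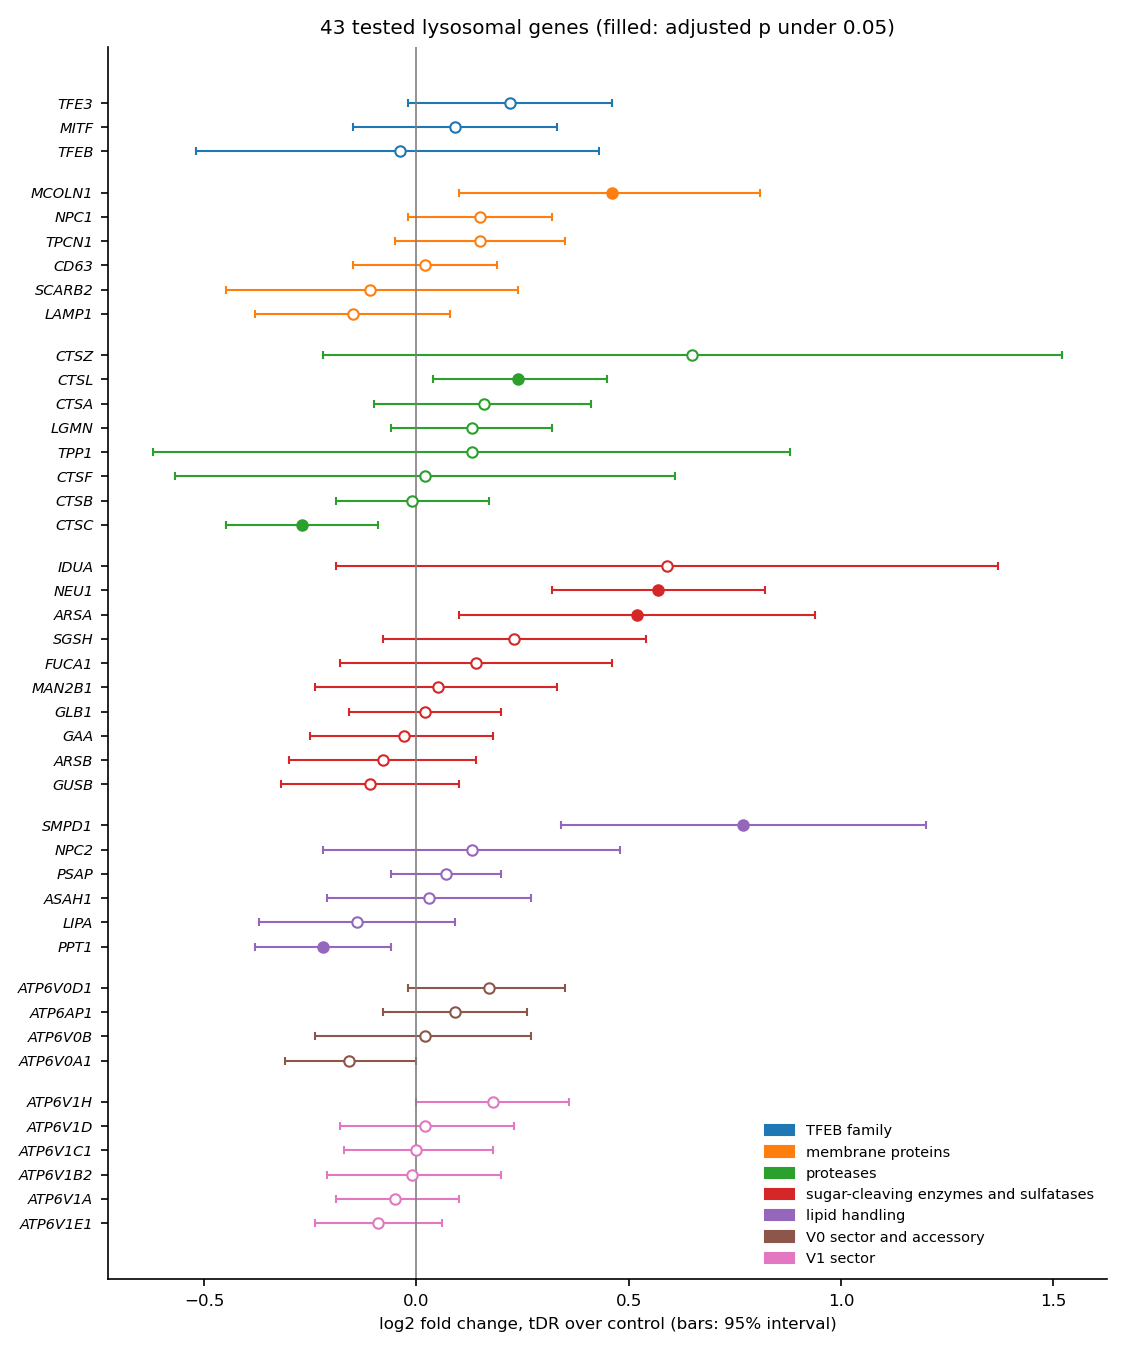
Log2 fold change of tDR over control for the 43 tested lysosomal genes, grouped by role. Bars are 95% intervals computed from the fold change and F statistic of edgeR. Filled points mark the 7 genes with an adjusted p under 0.05; the V-ATPase genes lie between -0.16 and 0.18.

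The members that were not tested are CTSD, GLA, HEXA, NAGLU, IDS, CLN3, ATP6V0C and ATP6V1F. GLA, IDS, ATP6V0C and ATP6V1F were listed at 0 counts in all 8 libraries, HEXA had 2 counts, CLN3 4, CTSD 7 and NAGLU 64 over all libraries together. They encode proteins that most cells need: CTSD the aspartic protease cathepsin D, HEXA a subunit of hexosaminidase, GLA a galactosidase, IDS a sulfatase, ATP6V0C the proton-carrying ring of the pump and ATP6V1F a V1 subunit. In GENCODE release 29 each of the 8 lay by 87.4% or more of its span under another annotated gene. For 6 of them, CTSD, HEXA, NAGLU, IDS, CLN3 and ATP6V0C, a gene on the same strand covered over 80% of the span. For GLA and ATP6V1F the covering gene was on the other strand, RPL36A-HNRNPH2 over GLA and KCP over ATP6V1F. None of the 43 tested members was covered to that extent, and the highest among them were TPP1 at 67.4% and ATP6V1D at 63.3%. Over all libraries the covering genes had 12 counts for RPL36A-HNRNPH2, 141 for KCP, and up to 399 for the gene over NAGLU, which is more than the 225 counts of the tested member TPP1. Over all annotated protein-coding genes, 68.7% of the 2874 covered by more than 80% had 0 counts in every library, against 3.37% of the other 16965. The spans are those of release 29 and include introns. The treatment of reads that fit more than 1 gene, the use of strand and the annotation behind the counts are unknown here. The low counts of these 8 genes therefore set no limit on their expression, and counts of other genes that overlap a neighbour are uncertain too. The part of the overlap in them was not tested.

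**Figure D2:**
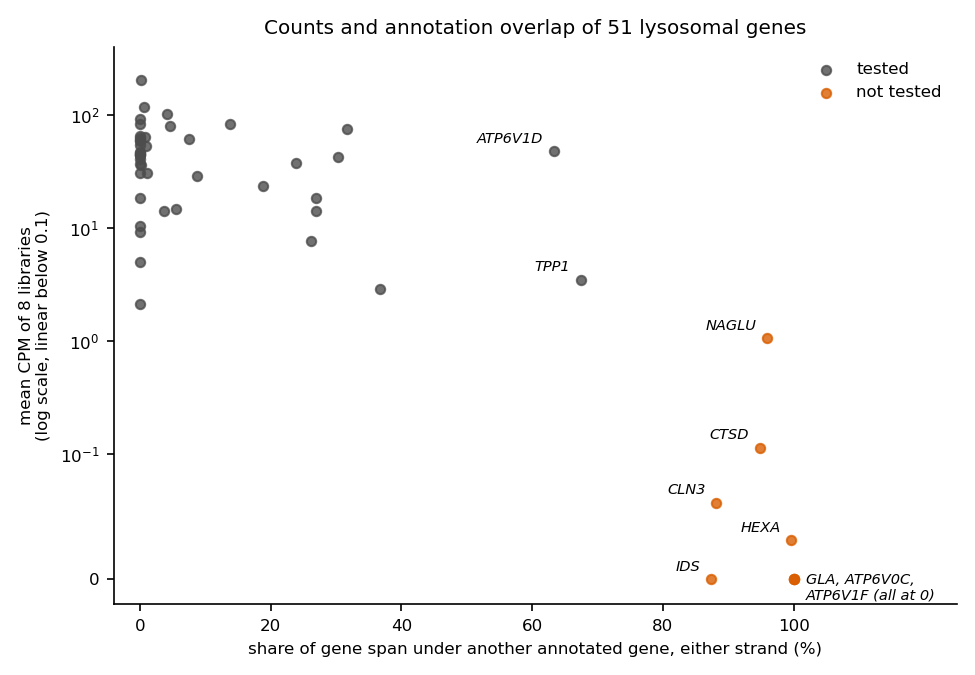
Mean CPM over the 8 libraries (vertical axis, logarithmic above 0.1 and linear below) against the share of each gene's span that lies under another annotated gene on either strand, for all 51 lysosomal genes. The 8 genes that were not tested all lie at 87.4% or more; TPP1 and ATP6V1D are the most covered of the tested genes.

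Library totals ranged from 5848305 to 10557740 counts. The first principal component separated the groups and held 41.4% of the variance. On the second, which held 12.2%, tDR replicate 1 stood at -25.97, against -10.38 to 10.89 in the other libraries. The HEK293 markers NEFM, NEFL, LIN28B, VIM, KRT18, PAX2 and KRT8 were present and SOX11 was under 1 CPM on average; summed, these markers ranged from 687 to 742 CPM in controls and from 599.8 to 651 CPM with the tDR. By log2 fold change NEFM (-0.41), NEFL (-0.46) and LIN28B (-0.22) fell, PAX2 (0.44) and KRT8 (0.63) rose, and VIM (0.03) and KRT18 (0.13) did not pass. The summed markers of leukocytes ranged from 2.07 to 4.77 CPM in controls and 2.88 to 4.61 CPM with the tDR, those of endothelium from 5.25 to 8.10 and 12.2 to 14.1 CPM, those of hepatocytes from 1.28 to 2.45 and 3.01 to 5.18 CPM, and those of fibroblasts, mostly COL1A1, from 15.3 to 20.8 and 26.0 to 29.3 CPM. Counts over olfactory receptor genes, which these cells should hardly express, gave an estimated background of 0.0136 to 0.0179 CPM per kb in controls and 0.0234 to 0.0262 in tDR libraries. Times a gene's span, this background made up 0.298% to 1.80% of the tDR counts of the 7 called members. Of the markers of other cell types it was 54.2% of the tDR counts for PECAM1, 45.2% for CDH5, 64.3% for VWF, 31.7% for TTR and 1.72% for COL1A1. The estimate was more than the tDR counts themselves for CD3E (145%), COL1A2 (130.3%) and ALB (165%), markers under 1 CPM on average. TFEC, which is not a member, stood at 109%. The estimate can thus overstate the background of a gene. Among the members it exceeded 10% in SCARB2, CTSZ, IDUA, ARSB, LIPA, TFEB and MITF, none of which passed. None of the markers of other cell types was at 0 in all libraries, and their part in the results was not tested.

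The TFEB family showed no call at the level of mRNA. TFEB, a main activator of lysosomal genes, stood at 10.2, 8.07, 6.67 and 6.19 CPM in control replicates 1 to 4 and at 7.28, 6.85, 8.55 and 7.55 CPM in tDR replicates 1 to 4. The tDR values lay within the range of the controls, and the log2 fold change was -0.04 with a 95% interval of -0.52 to 0.43. An estimated 16.9% of its tDR counts were background. TFE3, its X-linked relative, had 27.0, 31.9, 35.1 and 41.3 CPM in controls and 39.4, 38.5, 38.1 and 41.6 CPM with the tDR. Only control replicate 4 was as high as the tDR libraries. The log2 fold change of TFE3 was 0.22 (95% interval -0.02 to 0.46; adjusted p by edgeR = 0.0960). It passed without control replicate 4 (0.33) and with library size alone (0.30). MITF, best known from pigment cells, had 42.0, 30.8, 35.0 and 32.0 CPM in controls and 40.3, 40.4, 34.2 and 34.3 CPM with the tDR, with overlapping groups and a log2 fold change of 0.09 (interval -0.15 to 0.33). Of the 3 genes 1 had an unadjusted p under 0.05 and DESeq2 called 0. Summed over the 3 genes, the level ranged from 70.8 to 79.5 CPM in controls and from 80.9 to 87.0 CPM with the tDR. The sums of each other role overlapped between the groups. Estimated background was 10.5% of the control counts and 16.9% of the tDR counts for TFEB, and 10.3% and 15.2% for MITF. The sums were not tested, nor was the part of background in them. How often sums of other genes separate the groups was not counted.

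Of the 6 tested membrane protein genes 1 rose and 5 did not pass. MCOLN1 (chromosome 19, 7522626 to 7534009, GRCh38) encodes TRPML1, the channel that releases calcium from the lysosome. Its levels were 10.1, 11.1, 13.7 and 12.8 CPM in control replicates 1 to 4 and 17.1, 17.8, 17.2 and 13.3 CPM in tDR replicates 1 to 4. The groups overlapped through tDR replicate 4 and control replicate 3 alone. Its log2 fold change came to 0.46 ± 0.15 (SE; adjusted p by edgeR = 0.0163), a rise of 37.2%. The call was lost without control replicate 1 (0.38), tDR replicate 2 (0.40) or tDR replicate 3 (0.42).

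The 5 other membrane proteins had log2 fold changes between -0.15 and 0.15. CD63, a tetraspanin of late endosomes and lysosomes, stood at 74.7, 88.4, 90.3 and 78.9 CPM in controls and 81.1, 79.7, 91.5 and 83.3 CPM with the tDR. The groups overlapped, with a 95% interval for the log2 fold change of -0.15 to 0.19. NPC1, which moves cholesterol out of the lysosome, stood at 74.8, 67.0, 65.0 and 77.4 CPM in controls and 74.7, 85.2, 77.6 and 78.0 CPM with the tDR. Its log2 fold change was 0.15 (interval -0.02 to 0.32), and it passed with library size alone (0.23). LAMP1, an abundant glycoprotein of the lysosomal membrane, had means of 42.6 ± 5.04 CPM in controls and 38.4 ± 5.40 CPM with the tDR (SD, n = 4). The receptor gene SCARB2 and the channel gene TPCN1 had log2 fold changes of -0.11 and 0.15.

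Among 8 tested protease genes CTSL rose, CTSC fell and 6 did not pass. CTSL (chromosome 9, 87725519 to 87731393) encodes cathepsin L, a cysteine endopeptidase. It stood at 40.9, 44.6, 39.7 and 37.7 CPM in controls and at 49.3, 43.3, 49.5 and 50.7 CPM with the tDR. Apart from tDR replicate 2, each tDR library lay above each control. The log2 fold change of CTSL was 0.24 ± 0.085 (SE; adjusted p by edgeR = 0.0288). This was the least stable of the calls: it was lost without control replicate 3 (0.22), control replicate 4 (0.19), tDR replicate 1 (0.23), tDR replicate 3 (0.23) or tDR replicate 4 (0.22), and with no filter on low counts (0.21).

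CTSC (chromosome 11, 88293592 to 88337787) encodes cathepsin C, a dipeptidyl peptidase that activates serine proteases of immune cells. Its levels were 72.9, 72.8, 67.1 and 75.0 CPM in controls and 52.8, 58.2, 61.8 and 65.1 CPM with the tDR. Every tDR library lay below every control, as in 10.8% of all tested genes. CTSC fell by 0.27 on the log2 scale (SE 0.073; adjusted p by edgeR = 0.00432), a level that dropped by 17.1%. With library size alone the log2 fold change was -0.19 and did not pass. CTSB, the gene of cathepsin B, stood at 60.1, 62.0, 53.6 and 58.9 CPM in controls and 59.6, 57.4, 55.2 and 61.0 CPM with the tDR, with a log2 fold change of -0.01 (95% interval -0.19 to 0.17). The remaining proteases had log2 fold changes of 0.16 for CTSA, 0.13 for LGMN, 0.13 for TPP1, 0.02 for CTSF and 0.65 for CTSZ. CTSZ was the lowest tested member, at 1.65 ± 0.223 CPM in controls (SD, n = 4), and its 95% interval ran from -0.22 to 1.52. CTSA passed without control replicate 3 (0.31).

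Of 10 tested enzymes that cleave sugars or sulfate groups NEU1 and ARSA rose and 8 did not pass. NEU1 (chromosome 6, 31857659 to 31862906) encodes the lysosomal sialidase, which works in a complex with the product of CTSA. It stood at 21.1, 23.6, 24.3 and 30.0 CPM in control replicates 1 to 4 and at 35.0, 37.7, 37.2 and 37.7 CPM in tDR replicates 1 to 4. All tDR libraries lay above all controls, as in 11.8% of tested genes. NEU1 had a log2 fold change of 0.57 ± 0.10 (SE; adjusted p by edgeR = 2.63e-05), a rise of 48.8%. NEU1 kept its call under all 14 alternatives, with log2 fold changes of 0.49 to 0.68.

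ARSA (chromosome 22, 50622754 to 50628173) encodes arylsulfatase A, which removes sulfate from sulfatides. Its levels were 7.01, 8.44, 10.2 and 8.45 CPM in controls and 12.9, 9.59, 11.8 and 14.0 CPM with the tDR. The groups overlapped through tDR replicate 2, which lay under control replicate 3. ARSA had a log2 fold change of 0.52 ± 0.17 (SE; adjusted p by edgeR = 0.0200), and the call was lost without control replicate 1 (0.43) or tDR replicate 4 (0.43). GLB1, the beta-galactosidase gene, stood at 56.8, 60.5, 64.7 and 61.8 CPM in controls and 58.2, 60.3, 61.8 and 65.4 CPM with the tDR, a log2 fold change of 0.02 (95% interval -0.16 to 0.20). GAA, the gene of the enzyme that degrades glycogen in lysosomes, had 38.5, 53.5, 52.8 and 47.4 CPM in controls and 49.9, 45.5, 46.0 and 45.7 CPM with the tDR, a log2 fold change of -0.03 (interval -0.25 to 0.18). The other members of this role ranged from -0.11 for GUSB, the beta-glucuronidase gene, to 0.59 for IDUA, which was low at 2.34 ± 0.747 CPM in controls (SD, n = 4).

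**Figure D3:**
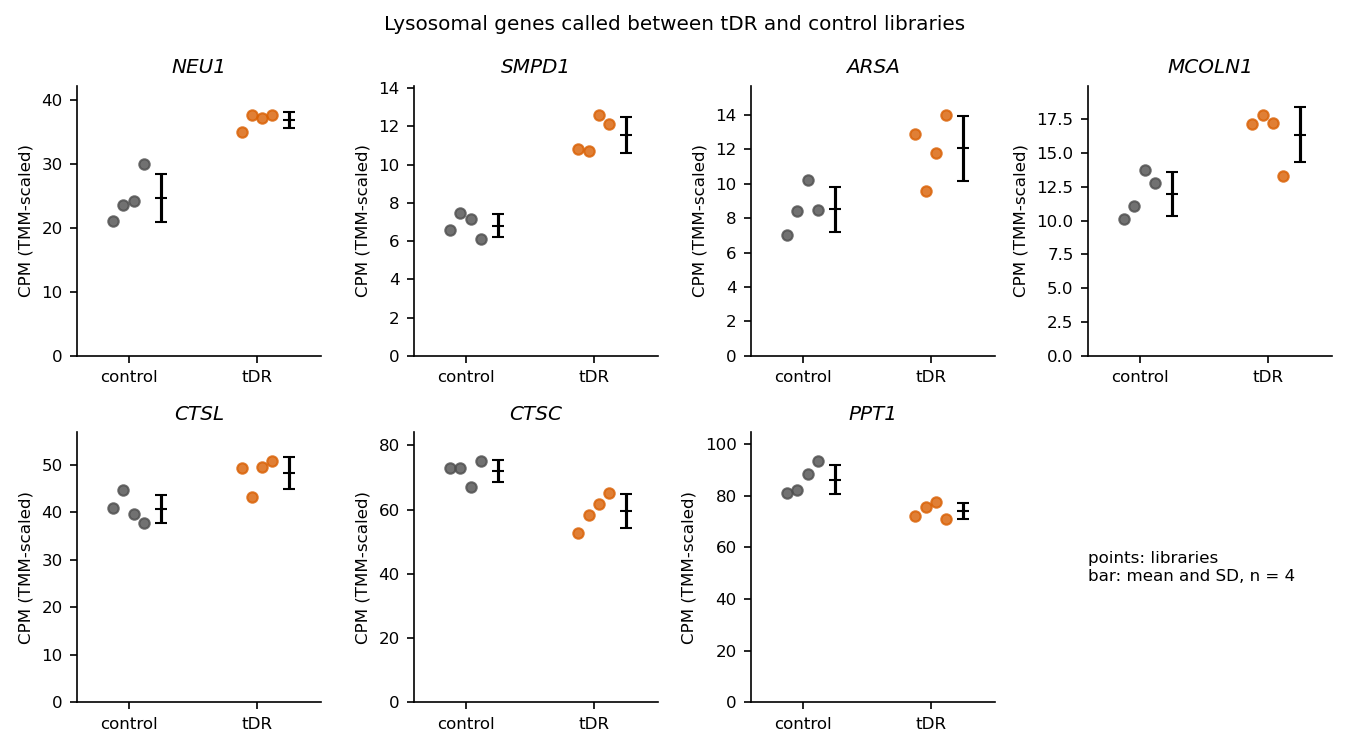
TMM-scaled CPM in each library for the 7 lysosomal genes that passed, with control libraries in grey, tDR libraries in orange and the mean and SD of 4 libraries as bars. In NEU1, SMPD1, CTSC and PPT1 the groups do not overlap. These are 2 higher and 2 lower of the 43 tested members, against 11.8% and 10.8% of all tested genes. In ARSA, MCOLN1 and CTSL 1 tDR library lies within the range of the controls.

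Of 6 genes for lipid breakdown and transport SMPD1 rose, PPT1 fell and 4 did not pass. SMPD1 (chromosome 11, 6390431 to 6394998) encodes acid sphingomyelinase, which turns sphingomyelin into ceramide. It stood at 6.57, 7.46, 7.15 and 6.09 CPM in controls and at 10.8, 10.7, 12.6 and 12.1 CPM with the tDR. The lowest tDR library stood above the highest control, as in 11.8% of all tested genes. The log2 fold change of 0.77 ± 0.17 (SE; adjusted p by edgeR = 0.000742) was the largest in size among the called members. SMPD1 was called under all 14 alternatives, at 0.70 to 0.85.

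PPT1 (chromosome 1, 40071461 to 40097727) encodes palmitoyl-protein thioesterase, which strips fatty acids from proteins. It stood at 81.2, 82.2, 88.5 and 93.3 CPM in controls and 72.0, 75.7, 77.6 and 71.2 CPM with the tDR. Here too the groups were separate, with the tDR libraries lower, as in 10.8% of all tested genes. PPT1 fell by 0.22 on the log2 scale (SE 0.067; adjusted p by edgeR = 0.0112). The call was lost without control replicate 4 (-0.19) or tDR replicate 4 (-0.20), with library size alone (-0.14), with background subtracted (-0.17) and with an offset for gene length and GC content (-0.15). PSAP, the precursor of the saposins that help lipid hydrolases, was the most abundant member per length, with 61.6 CPM per kb of exon in controls. Its levels were 184, 216, 190.2 and 208 CPM in controls and 205, 205, 221 and 209 CPM with the tDR. The log2 fold change of PSAP was 0.07 (95% interval -0.06 to 0.20), and it passed with library size alone (0.15) and with the length and GC offset (0.13). NPC2, ASAH1 and LIPA, for a cholesterol carrier, acid ceramidase and acid lipase, had log2 fold changes of 0.13, 0.03 and -0.14.

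The V-ATPase genes had similar levels in both groups, and 0 of the 10 tested were called by edgeR or by DESeq2. Of these 3 had an unadjusted p under 0.05. Summed over the subunits, the level was 702, 675, 714 and 717 CPM in control replicates 1 to 4 and 703, 697, 728 and 684 CPM in tDR replicates 1 to 4. The sums overlapped, with means of 702 ± 19.0 and 703 ± 18.1 CPM (SD, n = 4). Log2 fold changes of the 10 genes lay between -0.16 and 0.18, and the outermost bounds of their 95% intervals were -0.31 (ATP6V0A1) and 0.36 (ATP6V1H).

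Within the V0 sector ATP6V0A1, which encodes the large membrane subunit, stood at 117, 99.1, 104 and 108 CPM in controls and 102, 93.3, 101 and 88.5 CPM with the tDR. Its log2 fold change was -0.16 (adjusted p by edgeR = 0.0570). It passed with no filter on low counts (-0.19), with the length and GC offset (-0.18), and without control replicate 2 (-0.20), control replicate 3 (-0.19), tDR replicate 1 (-0.19) or tDR replicate 3 (-0.19). ATP6AP1, an accessory protein of pump assembly, had 70.9, 74.4, 86.6 and 90.0 CPM in controls and 85.7, 85.0, 89.2 and 82.7 CPM with the tDR (log2 fold change 0.09). ATP6V0B and ATP6V0D1 had log2 fold changes of 0.02 and 0.17, and ATP6V0D1 passed with library size alone (0.25).

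In the V1 sector ATP6V1A, the catalytic subunit, stood at 119.7, 113, 122 and 123 CPM in controls and 113, 107, 120.1 and 121 CPM with the tDR. Its log2 fold change was -0.05 (95% interval -0.19 to 0.10). ATP6V1E1, part of the stalk that joins the sectors, had 93.8, 93.5, 97.6 and 91.6 CPM in controls and 92.3, 90.5, 89.2 and 82.8 CPM with the tDR (log2 fold change -0.09). ATP6V1B2, ATP6V1C1 and ATP6V1D lay between -0.01 and 0.02. ATP6V1H, a regulatory subunit, was at 0.18 (adjusted p by edgeR = 0.0652), and it passed without tDR replicate 4 (0.22), with the length and GC offset (0.24) and with library size alone (0.26).

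**Figure D4:**
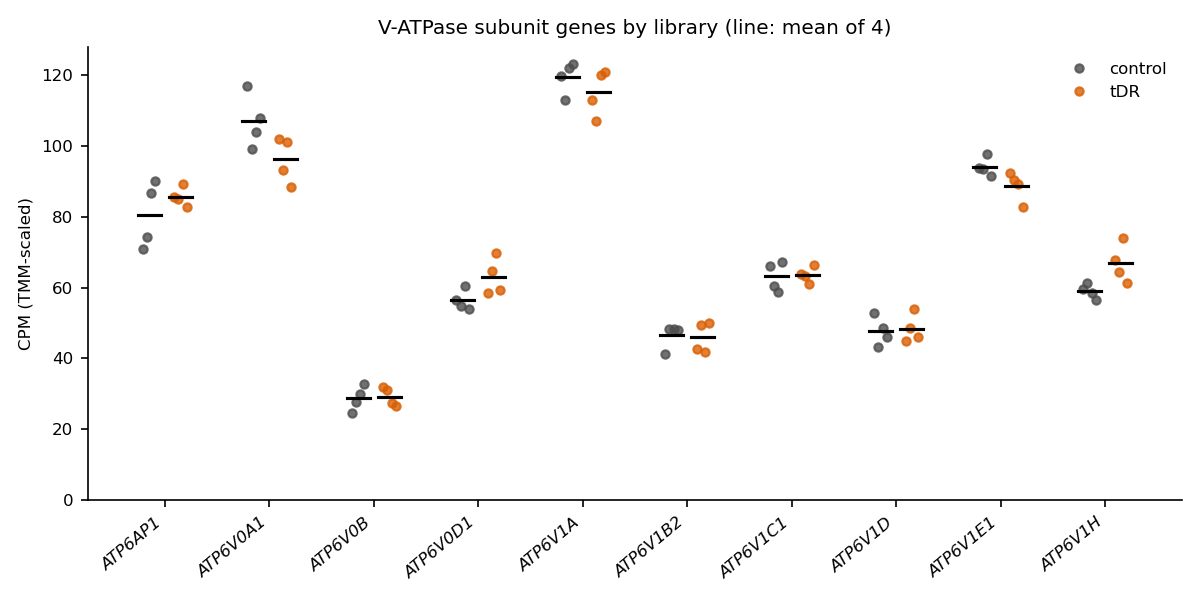
TMM-scaled CPM of the 10 tested V-ATPase genes in each library, with the mean of 4 libraries as a line. Control (grey) and tDR (orange) libraries overlap in each gene; ATP6V1A is the highest and ATP6V0B the lowest.

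Promoter sequences were available for 39 of the 51 members as RefSeq windows on GRCh38.p14, from 250 bases before to 50 bases after the start. They were searched for the E-box CACGTG, which reads the same on both strands, and for its extension TCACGTG on either strand, which resembles the core of the element bound by TFEB. Each TCACGTG also holds a CACGTG. For members and tested genes a single window per gene was searched, the first listed, and any other start was left out. The shorter motif was present in 11 of 39 members (28.2%). It was in 7.26% of all 35116 windows, which were not reduced to a single window per gene, and in 9.48% of tested genes with a window. The longer one was present in 10 of 39 (25.6%), against 3.71% and 5.34%. Of the called members with a window, MCOLN1 and NEU1 hold TCACGTG, and CTSL, SMPD1, CTSC and PPT1 do not. Among members that were tested and not called, 6 of 27 hold it (22.2%). LAMP1 has 6 copies of CACGTG in its window, the first at position -192 and the last at -1 counted from the start. A match describes the letters of the window and not binding. The 250 bases before the start are shown for the called members that hold TCACGTG and, for contrast, for the 2 with the smallest p among those that do not; capitals mark CACGTG with the T or A that extends it, and each runs 5′ to 3′ on the gene's strand. They lie at chr19:7522374-7522623 (plus strand) for MCOLN1, chr6:31862822-31863071 (minus strand) for NEU1, chr11:6390224-6390473 (plus strand) for SMPD1 and chr11:88337737-88337986 (minus strand) for CTSC.
MCOLN1: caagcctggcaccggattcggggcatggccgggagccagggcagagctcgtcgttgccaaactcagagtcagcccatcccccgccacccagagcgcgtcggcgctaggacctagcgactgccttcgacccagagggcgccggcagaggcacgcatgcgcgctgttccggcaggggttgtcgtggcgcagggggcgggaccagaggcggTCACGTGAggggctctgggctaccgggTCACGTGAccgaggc
NEU1: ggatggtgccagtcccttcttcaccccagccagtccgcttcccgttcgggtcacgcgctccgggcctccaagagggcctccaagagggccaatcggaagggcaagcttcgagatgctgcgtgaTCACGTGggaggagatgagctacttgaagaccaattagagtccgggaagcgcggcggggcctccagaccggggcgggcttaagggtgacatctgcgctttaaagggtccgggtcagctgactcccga
SMPD1: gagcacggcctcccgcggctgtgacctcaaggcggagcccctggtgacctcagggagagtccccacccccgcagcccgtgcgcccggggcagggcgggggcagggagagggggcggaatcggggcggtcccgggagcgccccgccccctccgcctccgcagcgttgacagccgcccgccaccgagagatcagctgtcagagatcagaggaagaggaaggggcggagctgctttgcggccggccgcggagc
CTSC: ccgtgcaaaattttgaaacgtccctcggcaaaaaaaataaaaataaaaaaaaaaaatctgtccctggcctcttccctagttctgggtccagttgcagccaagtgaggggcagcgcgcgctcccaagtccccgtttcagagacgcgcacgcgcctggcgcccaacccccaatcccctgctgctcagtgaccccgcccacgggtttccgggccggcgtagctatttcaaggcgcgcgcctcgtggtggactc
In MCOLN1 the E-boxes start at positions -41 and -14, and in NEU1 the single E-box starts at -126. MCOLN1 and NEU1 rose by 0.46 and 0.57 on the log2 scale, and SMPD1, with no match in its window, rose by 0.77.

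A wider list of 82 other lysosomal genes gave 72 tested genes of which 5 rose and 2 fell (6.94% and 2.78%, against 12.8% and 11.4% of all tested genes). The median log2 fold change was 0.04. Of 23 further enzymes and activators 0 were called by edgeR or DESeq2, and 4 had an unadjusted p under 0.05. Of 14 membrane proteins OSTM1 and CLCN7 rose, which together form the chloride and proton exchanger of the lysosome. OSTM1 went from 30.7 ± 1.88 to 37.6 ± 2.67 CPM (log2 fold change 0.30) and CLCN7 from 36.9 ± 4.41 to 44.5 ± 2.38 CPM (0.28; SD, n = 4). The call of OSTM1 was lost without control replicate 1 (0.25), tDR replicate 2 (0.26) or tDR replicate 4 (0.27), and that of CLCN7 without control replicate 1 (0.21), control replicate 4 (0.23) or tDR replicate 2 (0.25). With no filter on low counts neither passed (0.26 and 0.24), and CLCN7 did not pass with the length and GC offset (0.19).

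Among 9 further V-ATPase genes ATP6V0A4, a subunit known from kidney tubule cells, rose from 2.94 ± 1.15 to 6.72 ± 0.333 CPM (SD, n = 4; log2 fold change 1.20; adjusted p by edgeR = 0.000287). An estimated 33.8% of its tDR counts and 50.4% of its control counts were background. With background subtracted it was still called, at 1.61, but its control libraries held only 16 to 38 counts before the subtraction. Of 13 genes for sorting to the lysosome SORT1 (0.18) and IGF2R (0.13), both receptors for lysosomal enzymes, rose. IGF2R went from 394 ± 7.11 to 433 ± 10.9 CPM and SORT1 from 117 ± 5.01 to 133 ± 6.41 CPM (SD, n = 4). SORT1 lost its call without control replicate 3 (0.15), tDR replicate 1 (0.15) or tDR replicate 4 (0.17). IGF2R lost its call without control replicate 3 (0.11) or 4 (0.13) or without tDR replicate 1 (0.12), 3 (0.13) or 4 (0.12). With no filter on low counts neither passed (0.15 and 0.10).

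Of 17 listed genes that regulate TFEB at the lysosome 13 were tested, and LAMTOR4 and PPP3CB fell. FLCN, FNIP1, LAMTOR1 and LAMTOR5 were at 0 counts in all 8 libraries. Each lay by 99.9% or more of its span under other annotated genes, so their expression could not be judged here. LAMTOR4 encodes a part of the Ragulator complex that anchors mTORC1, and PPP3CB a catalytic subunit of calcineurin, the phosphatase that acts on TFEB. LAMTOR4 went from 55.0 ± 2.87 to 44.9 ± 7.26 CPM (log2 fold change -0.30) and PPP3CB from 64.6 ± 1.72 to 54.7 ± 3.12 CPM (-0.23; SD, n = 4). LAMTOR4 was lowest in tDR replicate 3, at 34.2 CPM, and without that library it did not pass (-0.19). With background subtracted neither passed (-0.24 and -0.20), nor with library size alone (-0.21 and -0.15). PPP3CB also did not pass with the length and GC offset (-0.13). MTOR and RPTOR, for the kinase and its scaffold, had log2 fold changes of 0.09 and -0.01.

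**Figure D5:**
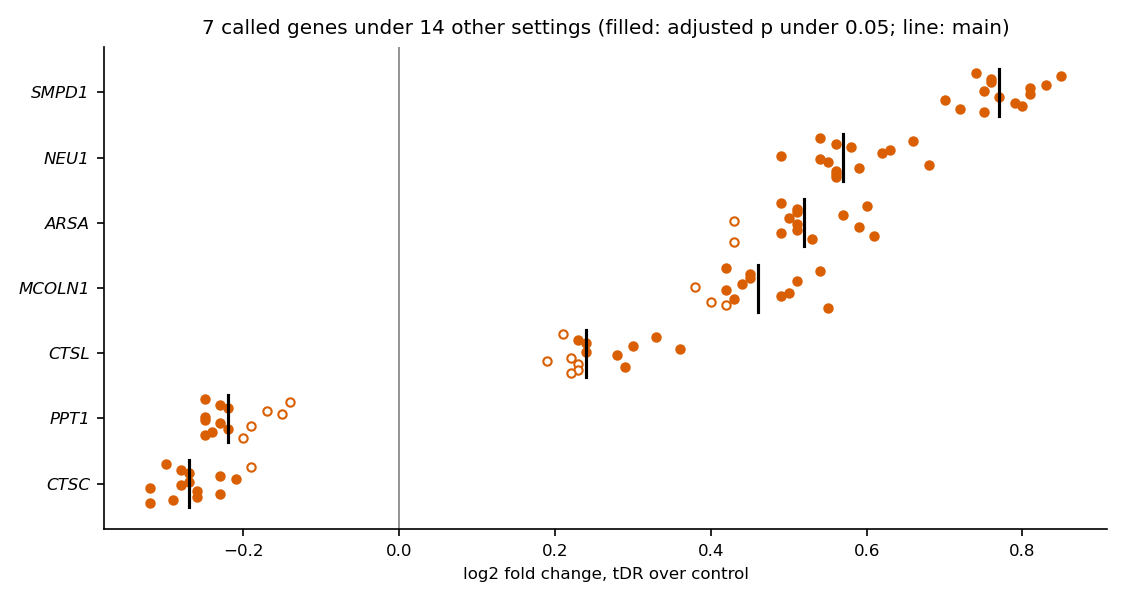
Log2 fold change of tDR over control for the 7 called lysosomal genes under 14 other settings, as points, with the main value as a black line. Filled points have an adjusted p under 0.05; NEU1 and SMPD1 have filled points only, and CTSL has the most open ones, 6 of 14.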

How the data were processed

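The submitters' processing notes name STAR 2.7.8a, featureCounts 2.0.2, cutadapt 2.10, DESeq2 1.30.1 and FastQC 0.11.9, and the builds GRCh38.p13 and hg38. The role of each, the strand setting and the annotation are unknown here. Per the labels' protocols, RNA was extracted with TRIzol and libraries were made with a stranded total RNA kit. The authors deposited whole-number read counts per gene, with no normalization, and each of the 8 columns matched 1 library by name.

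Counts were tested with edgeR 4.0.16 (R 4.3.3) over all 17184 genes that passed its filter on low counts, with TMM factors, group as the only term and Benjamini-Hochberg adjustment over all of them. CPM use TMM-scaled library sizes. The SE comes from the fold change and the F statistic, and 95% intervals use a multiplier of 2.45 (6 residual degrees of freedom). The multiplier leaves out what edgeR borrows across genes, so the intervals are wider than its p-values imply. For NPC1 the interval of -0.02 to 0.32 holds 0 although the unadjusted p by edgeR was 0.0404. The script was tested on simulated data. Positions, spans and exon lengths come from GENCODE release 29, which matched 57056 of 60606 genes. Background is the density of counts over 381 olfactory receptor genes (2478 kb) times the gene span.

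Alternatives were DESeq2 1.42.0, library size alone, no filter, a replicate block, background subtraction, an offset for length and GC content (mgcv 1.9.3), and each library left out. All pairs of libraries differed by more than counting noise (chi-square per degree of freedom at least 2.13). The members and lists were chosen with earlier results of these data known. Values per library are given for every called member, the TFEB family and the 2 most abundant members of each role. Of the wider list up to 3 called genes in each direction are named per subgroup; MTOR and RPTOR were chosen after their values were seen.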

Additional observations from a re-analysis of the deposited data

Results flagged for a closer look

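In 40 groups of 4 libraries, for the members given library by library, 2 held a library far from the other 3; chance alone flags about 1 in 20 such groups. For MCOLN1, tDR replicate 4 stood at 13.3 CPM, below the 17.1, 17.2 and 17.8 CPM of the other tDR libraries. For GAA, tDR replicate 1 stood at 49.9 CPM, above the 45.5, 45.7 and 46.0 CPM of the others.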

How the results depend on the processing

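Of the 5 higher members 5 were also called with DESeq2, with the replicate block, with background subtracted and with the length and GC offset. The replicate block left 5 members higher and 2 lower. Replicate numbers did not pair the libraries: deviations of same-numbered libraries correlated between -0.0273 and 0.0746, so the block only shares a number, and it gave 3874 calls over all genes. Leaving out 1 library at a time gave 3 to 5 higher and 1 to 3 lower members, 2 to 7 higher and 1 to 3 lower genes of the wider list, and 3162 to 4309 calls over all genes. With library size alone 12 members were higher and 0 lower, and of the wider list 17 were higher and 0 lower. With background subtracted 1 member was lower, 0 genes of the wider list were lower, and 2207 genes were called over all genes. With the length and GC offset 12 genes of the wider list were higher and 1 lower, with CLCN7 and PPP3CB no longer called, and with no filter on low counts 1 was higher. The cause was not tested. Over all genes, library size alone gave 19.2% higher and 5.28% lower, and background subtraction 7.38% and 7.24%. The length and GC offset gave 16.0% and 6.94% over all genes, and no filter 5.26% and 6.62%. Counting only members with under 10% background, an alternative chosen after seeing the data, gave 5 higher and 2 lower. That count could not differ, since the fit was the same and the called members had background of 0.298% to 1.80%. No direction reversed among the called genes. Members such as CTSZ, IDUA and TPP1, at under 4 CPM, have wide intervals at this depth.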
